A study of Mus musculus and Acomys cahirinus with 84 samples.

Results

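A set of 10 genes of fat cell formation and lipid storage was followed through irradiated skin fibroblasts: the regulators Pparg, Cebpa, Cebpb and Cebpd, the lipid handling genes Fabp4, Lpl, Cd36 and Plin2, the adipocyte hormone gene Adipoq, and the apolipoprotein gene Apoe. They were chosen by symbol, and all 10 had a row among the 56980 genes of the mouse table and the 19818 genes of the *A. cahirinus* table. The cells were primary skin fibroblasts from mice labelled C56BL6, from wild mice and from the African spiny mouse *Acomys cahirinus*, with no allele, sex, age or strain beyond these names in the labels. In each population, cells were left untreated (0 Gy) or given 10 or 20 Gy and collected 24 h or 12 d later. The 12 d series had a further untreated group that was passaged, so its dose was also 0 Gy. Each of the 21 groups held 4 libraries of polyA RNA, 84 in all. Library names carried an animal code for each replicate number, with no record of how cultures were set up, so p-values measure the spread between these libraries, part of which may be technical.

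Fat cell formation in culture is driven by a relay of transcription factors. C/EBPβ and C/EBPδ, encoded by Cebpb and Cebpd, act early and turn on PPARγ and C/EBPα, which then maintain each other and switch on the genes of lipid uptake and storage. Skin fibroblasts include precursors that can enter this path, and dense, undisturbed cultures are known to favour it. Lipoprotein lipase (Lpl) releases fatty acids from circulating lipoproteins, Cd36 takes fatty acids up, Fabp4 carries them inside the cell, perilipin 2 (Plin2) coats lipid droplets in many cell types, adiponectin (Adipoq) is secreted by mature fat cells, and apolipoprotein E (Apoe) carries cholesterol out of cells.

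Some libraries stood apart from their labels or groups. Total counts were 26.65 to 39.82 M per library in C56BL6 cells, 17.42 to 35.98 M in wild mouse cells and 25.55 to 52.86 M in *A. cahirinus* cells, so that 3 counts equalled 0.0568 to 0.172 counts per M of total counts (CPM). Keratinocyte markers (Krt5, Krt14 and 5 others) summed to 194 to 838 CPM in the 4 libraries of C56BL6 replicate 1 at 12 d, against 1.78 to 3.79 CPM in the 12 libraries of replicates 2 to 4, and at 24 h to 264 to 387 CPM in the 3 libraries of replicate 1, against 1.17 to 2.07 CPM in those of replicates 2 to 4. The 12 d libraries labelled wild replicate 1 had 0 genes on in one animal code (over 1 CPM in all its libraries of that time) and off in the other (1 count or fewer in each) when set against wild replicate 4 at either time. Set against the 24 h libraries of their own number they had 33 such genes, whereas wild replicates 2, 3 and 4 had 0 against their own number. Every other pair of different wild numbers had 9 to 94 such genes. C56BL6 replicates 3 and 4 also had 0 such genes between them within each time, so the count alone does not identify an animal. Whether the 12 d libraries of wild replicates 1 and 4 came from 1 animal was not tested, so they may not be independent in wild 12 d tests. Blocked calls of wild 12 d cells that were lost without replicate 1 are given with that value. In the 10 Gy library of wild replicate 1 at 24 h, 17843 genes had a read, fewer than the 21846 to 22253 of replicates 2 to 4. The labels put every 24 h library in one batch and every 12 d library in another, so a difference between times cannot be told apart from one between batches, and none was tested.

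The label of fibroblast was checked against markers. Of 10 listed fibroblast markers, Col1a1, Col1a2, Col3a1, Vim, Thy1, Pdgfra and Pdgfrb were read in every library, with Col1a1 at 2461 to 9598 CPM in C56BL6, 1343 to 30070 CPM in wild mouse and 5075 to 10830 CPM in *A. cahirinus* libraries. The other 3 were low in some mouse libraries: Lum ran from 0 to 95.8 CPM in C56BL6 and from 0 to 7.01 CPM in wild mouse libraries, Dcn went down to 0.749 and 0.225 CPM, and Fap to 0.103 and 0 CPM. Macrophages also express Apoe, Lpl and Cd36, and of their listed markers Adgre1 and Ptprc were low. Adgre1 reached at most 0.0513 CPM in C56BL6 and 0.103 CPM in wild mouse libraries, and Ptprc at most 0.177 and 1.22 CPM. In *A. cahirinus* the highest values were 0.208 CPM for Adgre1 and 0.112 CPM for Ptprc. Other genes of this list were read in mouse libraries, Csf1r at 4.43 to 22.8 CPM in C56BL6 and 6.12 to 45.8 CPM in wild mouse libraries, and Lyz2 at 0.797 to 27.8 and 0.683 to 17.4 CPM. Cd14 and Cd68, also listed, were read in every library of all 3 populations. Cd14 ran from 1.052 to 7.547 CPM in C56BL6, 1.765 to 14.56 CPM in wild mouse and 1.314 to 3.676 CPM in *A. cahirinus* libraries. Cd68 ran from 1.124 to 5.59, 1.152 to 7.048 and 0.8925 to 4.553 CPM. Of the mural and smooth muscle markers, Cnn1 and Des were read in every library too. Cnn1 ran from 140.3 to 507.5 CPM in C56BL6, 279.7 to 2385 CPM in wild mouse and 86.61 to 332.6 CPM in *A. cahirinus* libraries. Des ran from 1.685 to 45.73, 0.9794 to 1416 and 244.3 to 1557 CPM. Kcnj8, also listed, was at 0 CPM in some libraries of each population.

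The stretches just upstream of the start sites of 4 members that changed in irradiated C56BL6 cells are shown, 3 that were lower (Cebpa, Lpl and Adipoq) and 1 that was higher (Plin2), because PPARγ and the C/EBP proteins, members themselves, are known to bind near such genes. Sequences are from GRCm39, 5′ to 3′ on the gene's strand, the part of the 250 bases before the start of the canonical GENCODE transcript that lies outside annotated exons of the gene. Capitals mark matches to the letters TATAAA, a core promoter element, to the promoter element CCAAT, and to TTGCNNAA, a C/EBP element, searched on both strands.
Cebpa, chr7:34818478-34818717, plus strand: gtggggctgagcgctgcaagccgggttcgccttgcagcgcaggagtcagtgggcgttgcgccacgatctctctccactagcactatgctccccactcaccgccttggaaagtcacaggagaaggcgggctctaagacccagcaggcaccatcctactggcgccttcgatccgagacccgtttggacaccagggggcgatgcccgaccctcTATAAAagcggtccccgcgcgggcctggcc
Lpl, chr8:69332996-69333142, plus strand: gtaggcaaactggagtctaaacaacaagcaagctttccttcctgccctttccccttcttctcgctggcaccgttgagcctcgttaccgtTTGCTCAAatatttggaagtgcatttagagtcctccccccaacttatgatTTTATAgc
Adipoq, chr16:22965036-22965285, plus strand: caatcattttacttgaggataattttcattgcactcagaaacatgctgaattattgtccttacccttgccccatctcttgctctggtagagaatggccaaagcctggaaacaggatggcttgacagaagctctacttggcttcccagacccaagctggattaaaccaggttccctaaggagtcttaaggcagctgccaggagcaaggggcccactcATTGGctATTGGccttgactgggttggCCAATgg
Plin2, chr4:86588460-86588709, minus strand: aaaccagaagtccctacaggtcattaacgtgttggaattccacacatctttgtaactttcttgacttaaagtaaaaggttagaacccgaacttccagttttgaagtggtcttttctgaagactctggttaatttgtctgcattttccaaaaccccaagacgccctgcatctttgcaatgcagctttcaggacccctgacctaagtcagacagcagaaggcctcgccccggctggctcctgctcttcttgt
Cebpa held a TATAAA, Lpl held a TTGCNNAA and a TATAAA on the opposite strand, Adipoq held 3 CCAAT matches, 1 on the gene's strand and 2 on the opposite one, and Plin2 held none of them. Over the whole 250 bases, TTGCNNAA was present in 1 of the 10 members and in 9.34% of 21770 promoters of protein-coding genes. TATAAA was present in 2 members and 11.9% of promoters, and CCAAT in 2 members and 36.5%. The DR1 element, a direct repeat of AGGTCA with 1 base between the copies that PPARγ binds with RXR, was in 0 members and in 0.0367% of promoters, and a looser repeat of AGGNCA with the same spacing in 0 members and 0.349%. Overlaps between motifs were not checked. A match is only a run of letters in this window.

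Levels of different genes were set side by side per length, as CPM per kb of the deposited gene length. This length is the sum of exon lengths, and the order depends on it. It was 4489 bp for Fabp4 and 10478 bp for Lpl in the mouse table, and 832 and 3655 bp in that of *A. cahirinus*. In CPM alone, Fabp4 (mean 15.07) stood above Adipoq (8.265) in untreated C56BL6 cells at 12 d. In untreated C56BL6 cells at 12 d, Lpl was first (36.3 ± 20.3 CPM per kb, SD, n = 4), then Cebpd (28.5 ± 10.5), Plin2 (23.7 ± 6.89) and Apoe (23.6 ± 16.9). Cebpb (18.4 ± 3.91) and Cebpa (14.2 ± 7.18) followed, then Adipoq (5.99 ± 3.48), Fabp4 (3.36 ± 1.67), Pparg (2.58 ± 0.82) and Cd36 (0.214 ± 0.179). Neighbours in this order lay within their SDs except Pparg above Cd36. Untreated wild mouse cells had the same gene first, Lpl at 95.7 ± 79.0 CPM per kb (SD, n = 4), and the same gene last, Cd36 at 0.0241 ± 0.0364. Between them stood Apoe (34.6 ± 35.3), Plin2 (25.3 ± 8.44), Cebpd (22 ± 10.6), Cebpb (17 ± 5.29), Cebpa (7.08 ± 4.30), Fabp4 (4.35 ± 2.25), Pparg (4.34 ± 1.39) and Adipoq (2.37 ± 2.78), and of these neighbours Cebpb above Cebpa lay beyond their SDs. In untreated *A. cahirinus* cells Plin2 was first (19.9 ± 2.71 CPM per kb, SD, n = 4), then Cebpd (9.51 ± 3.13), Cebpb (8.35 ± 1.57) and Apoe (4.21 ± 2.0). The other 6 members were at or under 0.401 CPM per kb there. Plin2 above Cebpd, Cebpb above Apoe, Apoe above Pparg and Cebpa (0.328 ± 0.109) above Cd36 (0.0734 ± 0.0761) lay beyond their SDs. The species have separate tables and gene models, so levels were not tested between mice and *A. cahirinus*.

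At 12 d in irradiated C56BL6 cells Cebpa, Lpl and Adipoq fell and Plin2 rose at each dose, as the plot of each member by library at 12 d shows, and in *A. cahirinus* cells Pparg and Apoe rose at 20 Gy. At 20 Gy, 4 of 9 members tested passed an adjusted p of 0.05 in edgeR's quasi-likelihood test, 1 higher and 3 lower, against 26.5% of 15119 genes. The share of members was not tested against that background. Their median log2 fold change was -0.85, and -0.01 over all genes tested. At 10 Gy 4 of 10 members passed, against 20.9% of genes, with a median of -0.89 and of -0.01 over all genes. Both doses were compared with the same untreated libraries. The C56BL6 counts at both doses include Adipoq, which entered these fits through the untreated libraries in which it was high. In *A. cahirinus*, 2 of 8 members tested passed at 20 Gy, both higher, against 13.8% of genes in that direction and 31.8% in either, with a median of 0.76 against 0.00 over all genes. At 10 Gy 0 of 7 passed there (2.87% of genes), with an unadjusted p under 0.05 for 1 member in edgeR and 0 calls by DESeq2. In wild mouse cells no member passed at either dose, against 0.0694% of genes at 20 Gy and 0.264% at 10 Gy. There, edgeR gave 2 of 9 members at 20 Gy and 0 at 10 Gy an unadjusted p under 0.05, and DESeq2 called 0 at each dose.

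**Figure D1:**
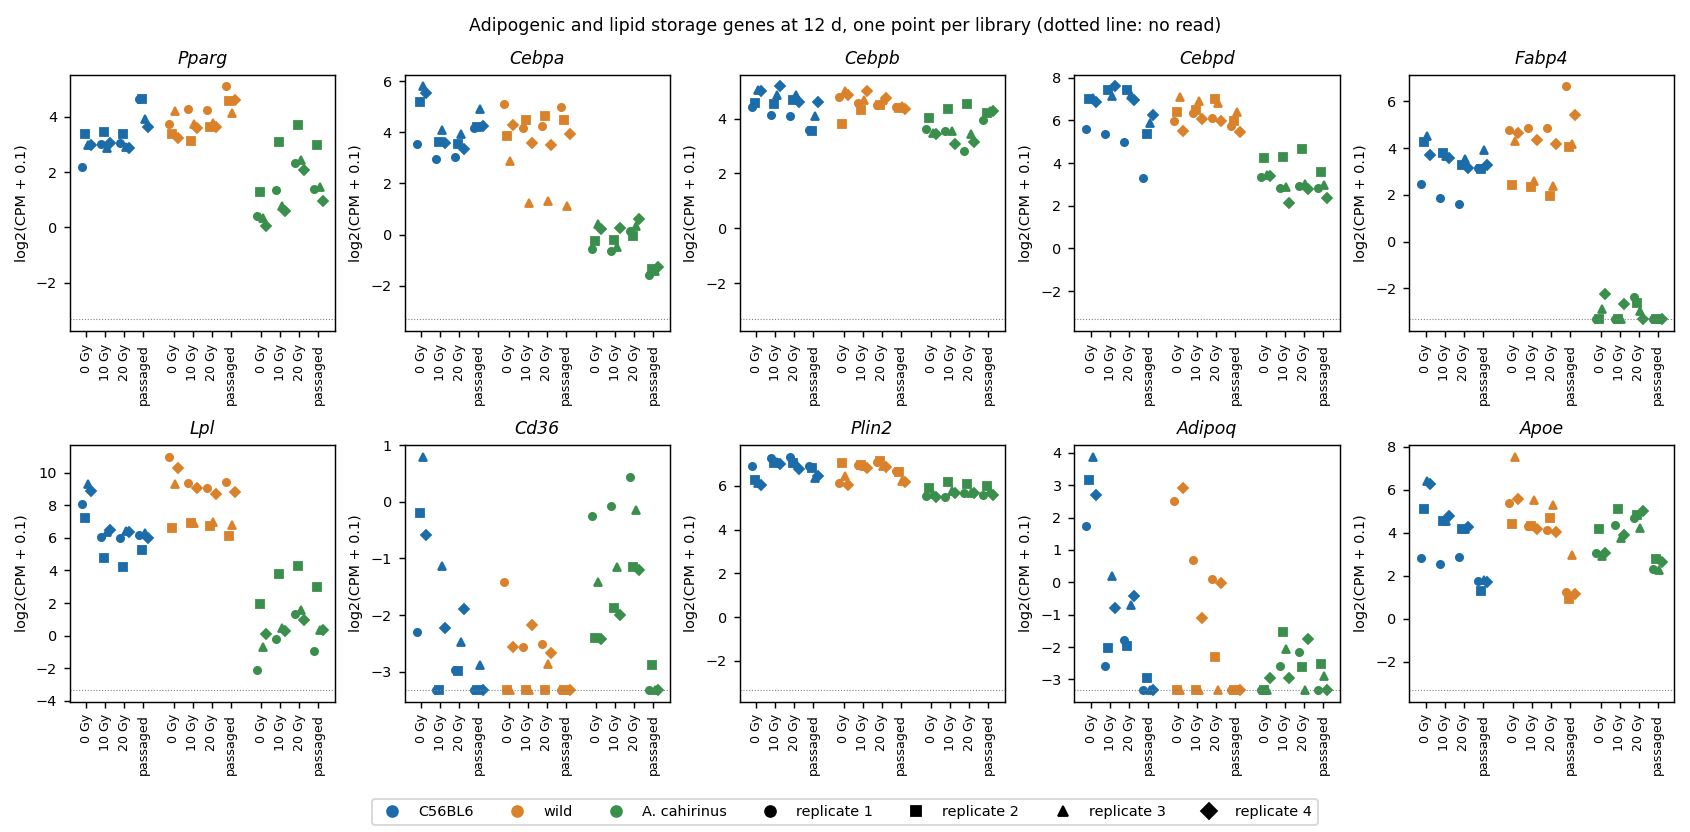
Level of each gene at 12 d as log2(CPM + 0.1), with 1 point for each of 48 libraries, colour for the population and marker shape for the replicate number. Adipoq of C56BL6 cells lies at 3.27 to 14.6 CPM without irradiation and at 0.154 to 0.647 CPM after 20 Gy, and Fabp4 and Adipoq of *A. cahirinus* lie near the dotted line of no read.

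Same-numbered libraries of a population deviated together in every comparison (processing section), so counts with the replicate number as a block are given too. With the block, 6 of 9 members passed at 20 Gy in C56BL6 cells (5 lower, 1 higher; 47.5% of genes) and 7 of 10 at 10 Gy (6 lower, 1 higher; 38.8% of genes). Wild mouse cells had 1 of 9 at 20 Gy (15.4% of genes) and 2 of 9 at 10 Gy (12.7% of genes). *A. cahirinus* cells had 4 of 8 at 20 Gy (49.2% of genes, 23.5% higher) and 3 of 7 at 10 Gy (27.5% of genes, 14.2% higher), all higher. The 4 at 20 Gy include Cd36, which entered that fit through the libraries in which it was high. Both C56BL6 counts include Adipoq, and the one at 10 Gy also Cd36, which entered mainly through untreated libraries in which they were high. Without C56BL6 replicate 1, whose libraries held keratinocyte markers, 7 of 10 members passed at each dose without a block, against 40% of genes at 20 Gy (1 higher, 6 lower) and 35.7% at 10 Gy (2 higher, 5 lower). Adipoq and Cd36 are among the 7 at each dose, with the same limit.

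Pparg encodes PPARγ, the nuclear receptor that commits cells to the fat lineage. In *A. cahirinus* at 12 d it measured 1.25, 2.34, 1.17 and 0.949 CPM in untreated replicates 1 to 4, 2.48, 8.42, 1.62 and 1.40 CPM after 10 Gy, and 4.91, 12.99, 5.28 and 4.16 CPM after 20 Gy. Replicate 2 was highest in every group, and all 20 Gy libraries lay above all untreated ones. The rise at 20 Gy was 2.25 ± 0.44 (log2 fold change ± SE, adjusted p = 0.00616). It no longer passed without replicate 1 (adjusted p = 0.0510) or replicate 3 (0.0552). At 10 Gy the value was 1.29 ± 0.63 (adjusted p = 0.276), and it passed with the replicate block (1.04 ± 0.27, adjusted p = 0.0255). With the block, 20 Gy also exceeded 10 Gy (1.19 ± 0.20, adjusted p = 0.00759). Untreated C56BL6 cells held 4.496, 10.4, 7.75 and 7.74 CPM and those given 20 Gy 8.26, 10.3, 7.47 and 7.14 CPM, ranges that overlap.

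Pparg was also higher in passaged cells of C56BL6 mice. Passaged C56BL6 libraries held 25.02, 25.2, 15.2 and 12.4 CPM, each above every untreated or irradiated C56BL6 library at 12 d. The rise over untreated cells was 1.36 ± 0.32 (adjusted p = 0.00824), and it passed without any one replicate (adjusted p = 0.0140 to 0.0375). Wild mouse cells had 34.4, 23.6, 17.4 and 24.1 CPM when passaged against 13.3, 10.3, 18.4 and 9.26 CPM when not, higher in 3 of 4 replicates (0.95 ± 0.28, adjusted p = 0.0657, and 0.0400 with the block). That blocked call was lost without wild replicate 1 (adjusted p = 0.151). *A. cahirinus* measured 2.53, 7.81, 2.66 and 1.82 CPM when passaged, higher in 4 of 4 replicates (1.35 ± 0.50, adjusted p = 0.0816, and 0.00108 with the block).

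Cebpa encodes C/EBPα, the partner of PPARγ in the later steps. In untreated C56BL6 cells at 12 d it measured 11.7, 36.4, 55.9 and 45.9 CPM, and after 20 Gy 8.13, 11.7, 15.2 and 10.0 CPM. Untreated replicate 1 lay within the irradiated range and the other 3 lay above it. The fall was -1.69 ± 0.43 at 20 Gy (adjusted p = 0.0233) and -1.58 ± 0.45 at 10 Gy (adjusted p = 0.0399), lower in 4 of 4 replicates each. Leaving out replicate 2, 3 or 4 ended both calls (adjusted p = 0.0934 to 0.129 at 20 Gy and 0.149 to 0.179 at 10 Gy), and leaving out replicate 1 lowered the p (0.000937 and 0.000895). Wild mouse cells split by replicate instead. Replicate 3 held 7.25 CPM untreated and 2.06 to 2.38 CPM in the other 12 d groups, against 11.4 to 34 CPM over the other 3 replicates. In *A. cahirinus* every library was at or under 1.43 CPM. Passaged *A. cahirinus* cells (0.230, 0.289, 0.273 and 0.315 CPM) lay below untreated ones (0.574, 0.741, 1.24 and 1.06 CPM), a fall of -1.71 ± 0.32 (adjusted p = 0.00734), which did not pass without replicate 3 (0.0661) or 4 (0.0514). Cebpa entered that fit through the untreated libraries, in which it was high, so the call is given as a description.

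The early factors Cebpb and Cebpd passed in none of the 3 populations at 10 or 20 Gy at 12 d, with or without the block. Leaving out single replicates made exceptions for Cebpd alone, in opposite directions. It was higher in C56BL6 cells at 10 Gy without replicate 1 (adjusted p = 0.0271). It was lower in *A. cahirinus* without replicate 2 at 20 Gy (0.00858) and at 10 Gy (0.0499). Cebpb fell in passaged C56BL6 cells (11.8, 11.5, 17.04 and 24.1 CPM against 21.4, 23.9, 33.1 and 32.1 CPM, ranges that overlap; -0.78 ± 0.26, adjusted p = 0.0386). It rose in passaged *A. cahirinus* cells (15.3, 18.1, 19.4 and 19.1 CPM against 12.4, 16.04, 11.2 and 10.9 CPM, also overlapping; 0.49 ± 0.15, adjusted p = 0.0408). Leaving out replicate 2 (adjusted p = 0.111) or 3 (0.151) ended the first call, and leaving out replicate 1 (0.122), 3 (0.219) or 4 (0.157) the second. Cebpd passed with the block in passaged cells of C56BL6 mice (-1.42 ± 0.26, adjusted p = 0.00374, and 0.110 without it) and *A. cahirinus* (-0.68 ± 0.12, adjusted p = 0.00176, and 0.128 without it). It passed without the block when C56BL6 replicate 1 (adjusted p = 0.00362) or *A. cahirinus* replicate 2 (0.0132) was left out. C56BL6 replicate 1 was the lowest library for Cebpd in every group, at 31.5 to 48.7 CPM against 116 to 194 CPM for the other replicates in the unpassaged 12 d groups. *A. cahirinus* replicate 2 was the highest in every group, at 11.9 to 25.5 CPM.

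Lpl was the member with the highest mean per length in untreated mouse cells at 12 d. C56BL6 replicates 1 to 4 held 274, 147, 626 and 476 CPM untreated, 67.6, 27.4, 82.1 and 89.7 CPM after 10 Gy and 63.7, 18.6, 87.2 and 80.7 CPM after 20 Gy. Neither irradiated group overlapped the untreated one, and replicate 2 was lowest in all 3. The fall was -2.57 ± 0.58 at 20 Gy (adjusted p = 0.0146) and -2.47 ± 0.52 at 10 Gy (adjusted p = 0.0140). Both calls were lost without replicate 3 (adjusted p = 0.0751 and 0.0955) or 4 (0.0764 and 0.0729). Passaged C56BL6 cells held 73.0, 37.6, 80.1 and 64.3 CPM, a fall of -2.58 ± 0.46 from untreated (adjusted p = 0.00261) that passed without any one replicate.

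Lpl of wild mouse cells measured 2018, 97.01, 634 and 1260 CPM untreated, 668, 122, 120 and 540 CPM after 10 Gy and 536, 108, 127 and 414 CPM after 20 Gy. Replicates 1 and 4, which may not be independent, were high in every group. Replicates 1, 3 and 4 were lower after each dose, and replicate 2 was not. The difference at 20 Gy did not pass (-1.72 ± 0.88, adjusted p = 0.440), nor with the block (-1.42 ± 0.38, adjusted p = 0.0504). In *A. cahirinus* the values ran the other way: 0.135, 3.79, 0.515 and 0.978 CPM untreated and 2.41, 19.4, 2.84 and 1.84 CPM after 20 Gy, higher in 4 of 4 replicates with overlapping ranges. The difference of 2.26 ± 1.06 did not pass (adjusted p = 0.137) and did so with the block (2.23 ± 0.38, adjusted p = 0.00320). Replicate 2 was far above the others, and without it the unblocked test passed (adjusted p = 0.0119).

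**Figure D2:**
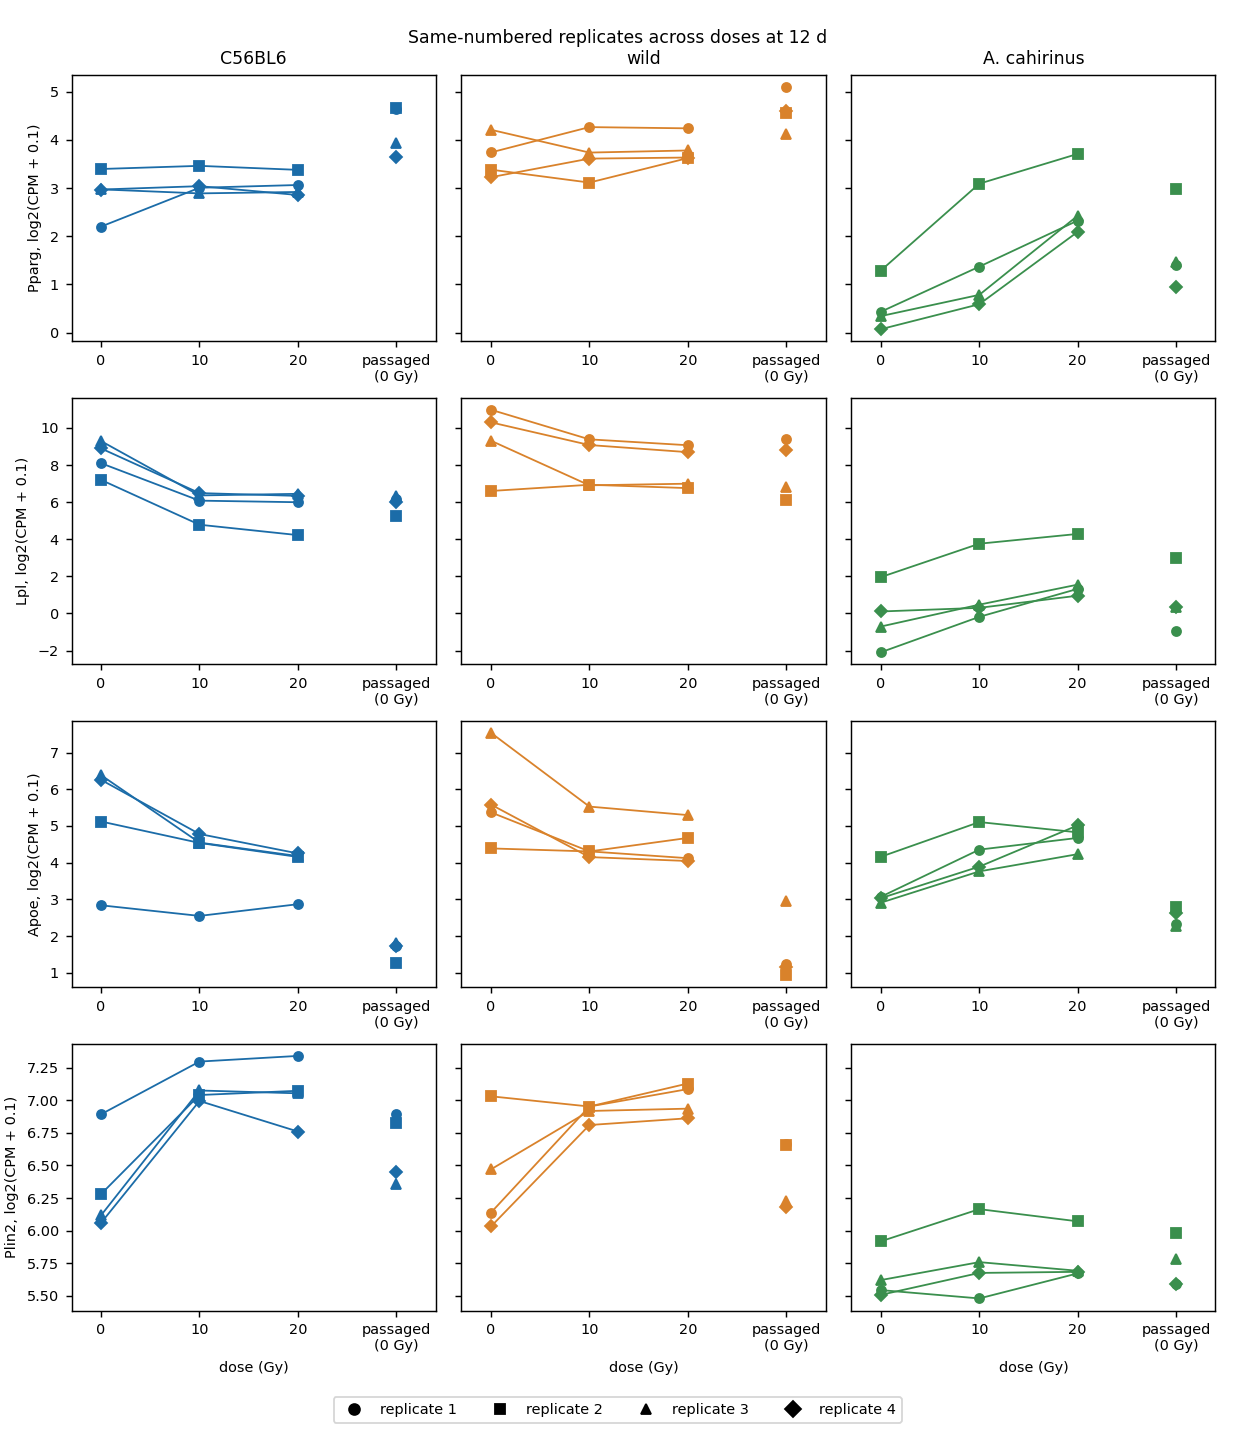
Pparg, Lpl, Apoe and Plin2 at 12 d as log2(CPM + 0.1) against dose, with the passaged 0 Gy group at the right; lines join libraries of the same replicate number. Lpl falls from 147 to 626 CPM at 0 Gy to 18.6 to 87.2 CPM at 20 Gy in C56BL6 cells, whereas all 4 *A. cahirinus* lines for Pparg, Lpl and Apoe are higher at 20 than at 0 Gy.

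Plin2 was measured at 44.5 CPM or more in every library at 12 d. C56BL6 cells held 119, 77.6, 69.3 and 66.6 CPM untreated, 157, 132, 135 and 127 CPM after 10 Gy, and 162, 134, 133 and 108.3 CPM after 20 Gy. All 10 Gy libraries lay above the untreated ones, and at 20 Gy replicate 4 fell inside the untreated range. The rise was 0.77 ± 0.18 at 10 Gy (adjusted p = 0.0228) and 0.73 ± 0.20 at 20 Gy (adjusted p = 0.0313), higher in 4 of 4 replicates each. Leaving out replicate 2, 3 or 4 ended both calls (adjusted p = 0.102 to 0.148 and 0.0848 to 0.154). Plin2 thus moved against Lpl, Cebpa and Adipoq in the same libraries. Wild mouse cells held 70.3, 131, 88.5 and 65.3 CPM untreated and 136, 140, 122 and 116 CPM after 20 Gy (0.56 ± 0.22, adjusted p = 0.330, and 0.0421 with the block, 0.183 without replicate 1 as well). In *A. cahirinus* the 12 d libraries spanned 44.5 to 71.7 CPM and no dose or passage comparison with untreated cells passed with or without the block.

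Fabp4 was read in mouse cells and was near 0 in *A. cahirinus* cells. Fabp4 measured 5.52, 18.96, 22.7 and 13.2 CPM in untreated C56BL6 cells and 2.92, 9.53, 11.4 and 8.77 CPM after 20 Gy, lower in 4 of 4 replicates with overlapping ranges. The difference passed with the block (-0.83 ± 0.10, adjusted p = 0.00127) and not without it (-0.85 ± 0.50, adjusted p = 0.241), unless replicate 1 was left out (0.0156). The highest Fabp4 value was 100.6 CPM, in passaged wild replicate 1, and passaged wild cells exceeded passaged C56BL6 cells (2.10 ± 0.59, adjusted p = 0.0482; 1 of 8 members, against 15.1% of genes). That call was lost without replicate 1 (adjusted p = 0.154), 2 (0.0964) or 4 (0.181). In *A. cahirinus* no library exceeded 0.115 CPM of Fabp4, and it was not tested there.

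Cd36 reached 1.64 CPM at most in C56BL6 cells at 12 d (untreated replicate 3) and 0.276 CPM in wild mouse cells. In C56BL6 cells it measured 0.102, 0.772, 1.64 and 0.564 CPM untreated and 0, 0, 0.357 and 0.112 CPM after 10 Gy. The 10 Gy difference passed with the block (-2.79 ± 0.60, adjusted p = 0.00860) and not without it (0.123), unless replicate 1 was left out (0.0381). Cd36 entered these C56BL6 fits mainly through the untreated libraries in which it was high, so the C56BL6 calls are given as a description. With all replicates it was not tested for 20 against 0 Gy in C56BL6 cells. *A. cahirinus* cells held 0.743, 0.0889, 0.275 and 0.0863 CPM untreated and 1.25, 0.349, 0.803 and 0.335 CPM after 20 Gy, higher in 4 of 4 replicates. This passed with the block only (1.35 ± 0.35, adjusted p = 0.0168). Cd36 entered that fit through the 20 Gy libraries in which it was high, and it was not tested for 10 against 0 Gy. The call is therefore given as a description. Passaged cells had almost no Cd36 reads: 1 count in C56BL6, 0 in wild mouse and 1 in *A. cahirinus* libraries together. Against passaged *A. cahirinus* cells, those given 20 Gy had 93 counts, a 76.3-fold higher rate (95% counting interval 13.4 to 3044). In edgeR it passed (adjusted p = 0.00172), but it was tested only through the 20 Gy libraries in which it was high, and it was not tested against passaged cells for 10 or 0 Gy, so that call is given as a description.

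Adipoq, the gene of the fat cell hormone adiponectin, had the largest fitted fall of any member in irradiated C56BL6 cells at 12 d. Untreated C56BL6 cells at 12 d held 3.27, 8.81, 14.6 and 6.36 CPM. After 10 Gy the values were 0.0673, 0.147, 1.04 and 0.476 CPM, and after 20 Gy 0.191, 0.154, 0.512 and 0.647 CPM. No irradiated library reached the lowest untreated one, and the irradiated groups overlapped each other. The fall was -4.40 ± 0.63 at 20 Gy (adjusted p = 0.00276), and it passed without any one replicate (adjusted p = 0.00110 to 0.0293). At 10 Gy it was -4.19 ± 0.80 (adjusted p = 0.0103), and did not pass without replicate 2 (0.0680) or 4 (0.0684). Adipoq entered both fits through the untreated libraries, in which it was high, so these calls are given as a description. Passaged C56BL6 cells had 1 Adipoq count in 124.41 M, against 1014 in 121.77 M in untreated cells, a 1036-fold lower rate (95% counting interval 185.5 to 40960, counting error only).

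In untreated wild mouse cells at 12 d Adipoq was read in replicates 1 and 4, which may not be independent. Untreated values were 5.62, 0, 0 and 7.44 CPM, and those after 20 Gy 0.974, 0.101, 0 and 0.876 CPM. Both replicates that had reads when untreated were lower after each dose. The 10 Gy difference passed with the block (-2.95 ± 0.65, adjusted p = 0.0467) and not without it (0.637), and without replicate 1 Adipoq no longer had enough reads to be tested. Passaged wild cells had 0 counts against 335 in untreated cells, at least 115-fold lower (3 counts over the group as the floor). In *A. cahirinus* no library exceeded 0.243 CPM, and untreated 12 d cells had 1 count in 126.29 M.

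Apoe was lower after 20 Gy in most C56BL6 and wild replicates and higher in every *A. cahirinus* replicate. Untreated C56BL6 cells at 12 d held 7.05, 34.7, 83.5 and 76.4 CPM and those given 20 Gy 7.20, 17.7, 18.03 and 18.96 CPM. Replicates 2 to 4 were lower after 20 Gy and replicate 1 was not. The difference of -1.66 ± 0.67 did not pass (adjusted p = 0.101), passed with the block (-1.33 ± 0.36, adjusted p = 0.0232) and passed without replicate 1 (adjusted p = 0.00414). Wild mouse values were 41.3, 20.8, 186 and 47.8 CPM untreated and 17.3, 25.4, 39.2 and 16.4 CPM after 20 Gy, lower in 3 of 4 replicates. At 10 Gy it was lower in 4 of 4 wild replicates, a difference that passed with the block only (-1.15 ± 0.28, adjusted p = 0.0382), and not with the block and without replicate 1 (0.120).

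In *A. cahirinus*, Apoe measured 8.30, 17.8, 7.42 and 8.08 CPM untreated, 20.4, 34.4, 13.5 and 14.8 CPM after 10 Gy and 25.4, 28.3, 18.7 and 32.3 CPM after 20 Gy. Every 20 Gy library lay above every untreated one, and the 10 Gy libraries overlapped both groups. The rise at 20 Gy was 1.34 ± 0.30 (adjusted p = 0.0116). It did not pass without replicate 1 (adjusted p = 0.0951), 3 (0.0550) or 4 (0.0788). At 10 Gy it was 1.0 ± 0.40 (adjusted p = 0.196). That difference passed with the block (0.0012) and without replicate 2 (0.0159).

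Passaged cells had little Apoe in all 3 populations: 3.25, 2.31, 3.38 and 3.19 CPM in C56BL6, 2.27, 1.80, 7.72 and 2.11 CPM in wild mouse, and 4.91, 6.83, 4.71 and 6.12 CPM in *A. cahirinus* cells. Each passaged group lay below its untreated group without overlap. Apoe fell by 4.06 ± 0.70 on the log2 scale in C56BL6 (adjusted p = 0.00229) and by 4.42 ± 0.85 in wild mouse cells (0.0230). In *A. cahirinus* the difference of -0.91 ± 0.30 passed with the block (-0.83 ± 0.17, adjusted p = 0.00404, against 0.0579), and without it when replicate 2 was left out (0.0128). The wild call was lost without replicate 1 (adjusted p = 0.179), 2 (0.0563) or 4 (0.118), and held with the block and without replicate 1 (0.0121). Cells given 20 Gy stood above passaged cells in each population, by 2.37 ± 0.31 in C56BL6 (adjusted p = 0.000696), 2.85 ± 0.55 in wild mouse (0.0175) and 2.22 ± 0.19 in *A. cahirinus* cells (0.000125). The wild call was lost without replicate 1 (adjusted p = 0.112), 2 (0.0859) or 4 (0.107).

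Against untreated cells, passaging changed 5 of 9 members in C56BL6 (1 higher, 4 lower; 49.6% of genes), 1 of 8 in wild mouse (10.7% of genes) and 2 of 7 in *A. cahirinus* cells (25.8% of genes). With the block the counts were 7 of 9 (60.1%), 3 of 8 (31.9%) and 6 of 7 (49.5%). In both fits the C56BL6 count includes Adipoq and the *A. cahirinus* count Cebpa, which entered through untreated libraries in which they were high. The 3 wild calls were Pparg, Lpl (-1.52 ± 0.32, adjusted p = 0.0164) and Apoe, and without wild replicate 1 the block left 1 of 8 (13.7% of genes), Apoe, with Lpl at 0.0720. Against passaged cells, 20 Gy changed 3 of 8 members in C56BL6 (41.6% of genes), 2 of 8 in wild mouse (10.5%) and 3 of 8 in *A. cahirinus* cells (42.5%), and with the block 6 of 8 (56.1%), 5 of 8 (38%) and 5 of 8 (56%). Pparg was lower after 20 Gy than in passaged C56BL6 cells (-1.22 ± 0.25, adjusted p = 0.00549), as was Cebpa (-0.92 ± 0.23, 0.0147; 0.0549 without replicate 2 and 0.0653 without replicate 4). Cebpa was higher after 20 Gy than in passaged *A. cahirinus* cells (2.0 ± 0.27, adjusted p = 0.000849). There Cebpa, like Cd36, entered the fit through the 20 Gy libraries in which it was high, so the call is given as a description. Plin2 was higher after 20 Gy than in passaged wild mouse cells (0.58 ± 0.15, adjusted p = 0.0422; 0.0860 to 0.187 when any one replicate was left out). For 10 Gy against passaged cells, 4 of 8 members passed in C56BL6 (41.6% of genes), 1 of 8 in wild mouse (8.81%) and 2 of 7 in *A. cahirinus* cells (20.2%), and with the block 6 of 8 (59.8%), 5 of 8 (35.1%) and 2 of 7 (45.6%). The blocked wild counts against passaged cells were also 5 for each dose without wild replicate 1. Apoe was among them in each population, at 2.74 ± 0.44 (adjusted p = 0.00188), 2.91 ± 0.58 (0.0229) and 1.89 ± 0.32 (0.00709). The wild call was lost without replicate 1 (adjusted p = 0.154), 2 (0.0840) or 4 (0.126), and the *A. cahirinus* call without replicate 1 (0.0888). Cebpa passed as well in C56BL6 (-0.80 ± 0.26, adjusted p = 0.0357), except without replicate 2 (0.102) or 4 (0.118), and in *A. cahirinus* (1.44 ± 0.31, adjusted p = 0.0171), except without replicate 1 (0.105), 3 (0.0812) or 4 (0.0799). The *A. cahirinus* call is given as a description, since Cebpa entered that fit through the 10 Gy libraries in which it was high. The other C56BL6 members that passed were Pparg, lower (-1.16 ± 0.25, adjusted p = 0.00723), and Plin2, higher (0.47 ± 0.13, 0.0221; 0.0522 to 0.0935 without replicate 2, 3 or 4). These comparisons share the passaged libraries with each other and with the comparison with untreated cells.

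**Figure D3:**
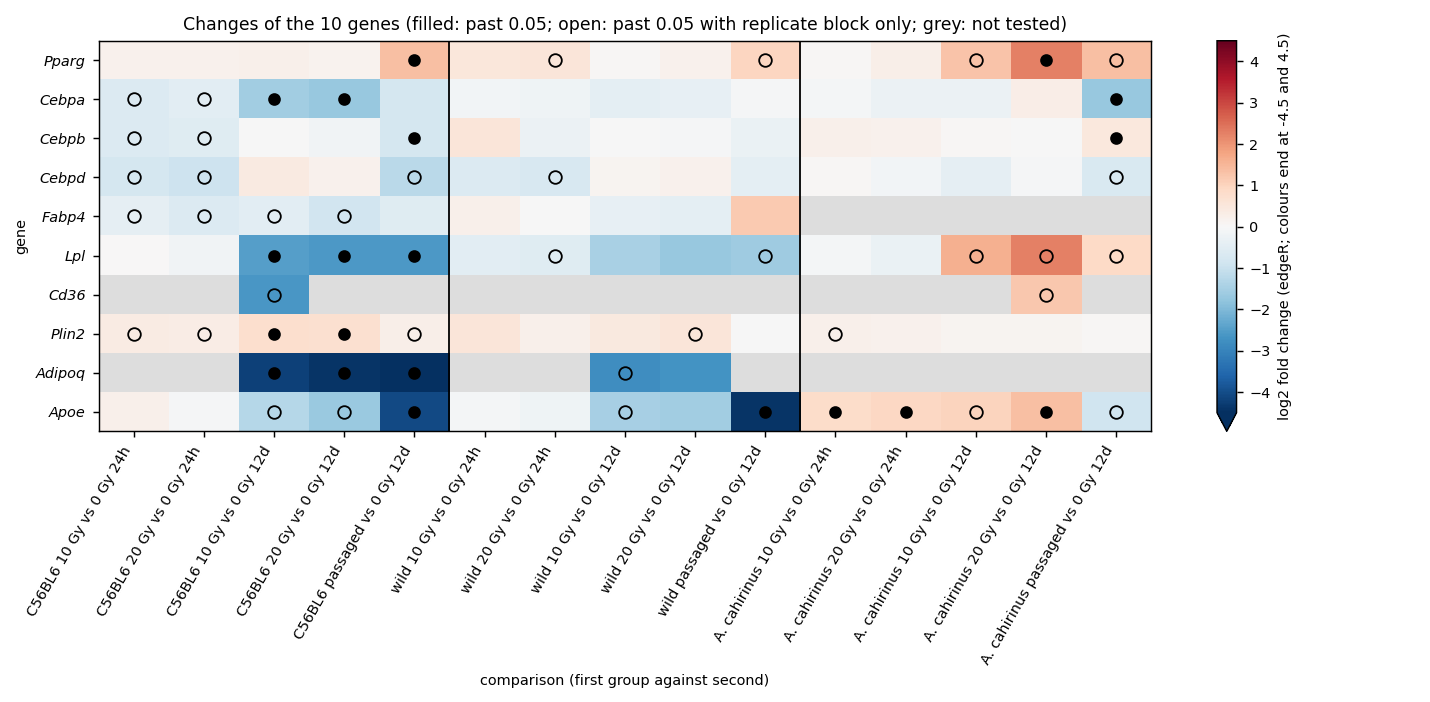
Log2 fold changes of the 10 genes (rows) in 15 comparisons with untreated cells (columns), red higher and blue lower; filled circles passed an adjusted p of 0.05, open circles passed only with the replicate block, and grey cells were not tested. Apoe is blue in the mouse columns at 12 d, most so for passaged cells, and red in the irradiated *A. cahirinus* columns. At 20 Gy and 12 d it is -1.66 in C56BL6 and 1.34 in *A. cahirinus*.

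At 24 h few members passed without the replicate block. In C56BL6 cells no member passed at 20 Gy (0.0895% of genes) or 10 Gy (0.007% of genes). There, edgeR gave 1 and 2 members an unadjusted p under 0.05, and DESeq2 called 0 at each dose. With the block 5 of 8 members passed at each dose, against 17.6% and 11.5% of genes: Cebpa, Cebpb, Cebpd and Fabp4 were lower and Plin2 was higher. Cebpd, for example, measured 7.36, 29.6, 42.1 and 48.1 CPM untreated and 5.82, 16.3, 16.9 and 27.4 CPM after 20 Gy, lower in 4 of 4 replicates with overlapping ranges (-0.89 ± 0.11 with the block, adjusted p = 8.61e-05). Plin2 measured 115, 118, 85.4 and 85.6 CPM untreated and 135, 149, 118 and 106 CPM after 20 Gy (0.34 ± 0.05 with the block, adjusted p = 0.000341). Lpl, which fell at 12 d, held 53.03, 25.3, 61.2 and 50.3 CPM untreated and 49.3, 26.02, 48.8 and 46.3 CPM after 20 Gy at 24 h.

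At 24 h no member of wild mouse cells passed at either dose (0.0% of genes at each). There, edgeR gave 0 members an unadjusted p under 0.05, and DESeq2 called 0. With the block 3 of 8 members passed at 20 Gy, against 12.5% of genes: Pparg was higher (0.65 ± 0.13, adjusted p = 0.00706), and Cebpd (-0.68 ± 0.12, 0.00376) and Lpl (-0.51 ± 0.07, 0.00159) were lower. At 10 Gy the block gave 0 members (0.0% of genes), of which 2 had an unadjusted p under 0.05, and 4 of 8 when replicate 1 was left out as well (23% of genes). Wild replicate 4 carried most Lpl, at 322 to 483 CPM against 12.6 to 62.1 CPM in the other replicates. The wild 10 Gy library of replicate 1 held 61.2 CPM of Cebpb and 266 CPM of Plin2, against 15.5 to 23.8 and 100.2 to 128 CPM in the others of its group.

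*A. cahirinus* cells had 1 of 7 members past the threshold at each dose at 24 h, against 3.59% of genes at 20 Gy (0.89% higher) and 3.73% at 10 Gy (0.634% higher), and it was Apoe, higher. It measured 5.403, 4.30, 4.16 and 4.38 CPM untreated, 7.62, 8.89, 7.30 and 8.56 CPM after 10 Gy and 7.65, 9.79, 7.22 and 9.94 CPM after 20 Gy. Both irradiated groups lay above the untreated one and overlapped each other. The rise was 0.83 ± 0.13 at 10 Gy (adjusted p = 0.0117) and 0.93 ± 0.15 at 20 Gy (0.0154). Leaving out replicate 1, 3 or 4 ended both calls (adjusted p = 0.0798 to 0.157 and 0.0791 to 0.143). With the block, Plin2 passed as well at 10 Gy (0.23 ± 0.06, adjusted p = 0.0104). Between 20 and 10 Gy, 0 members passed without the block at either time in any population, against 0.457% of genes in *A. cahirinus* at 12 d and 0.0% in the other 5 comparisons. There, edgeR gave 0 members an unadjusted p under 0.05 and DESeq2 called 0. With the block 2 members passed, Pparg and Lpl in *A. cahirinus* at 12 d (17.9% of genes). In the other 5 comparisons the block gave 0, against 1.44% of genes at 24 h and 0.297% at 12 d in C56BL6, 0.0% and 0.257% in wild mouse, and 0.302% at 24 h in *A. cahirinus* cells, and unadjusted p-values under 0.05 for 1, 3, 0, 1 and 0 members.

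**Figure D4:**
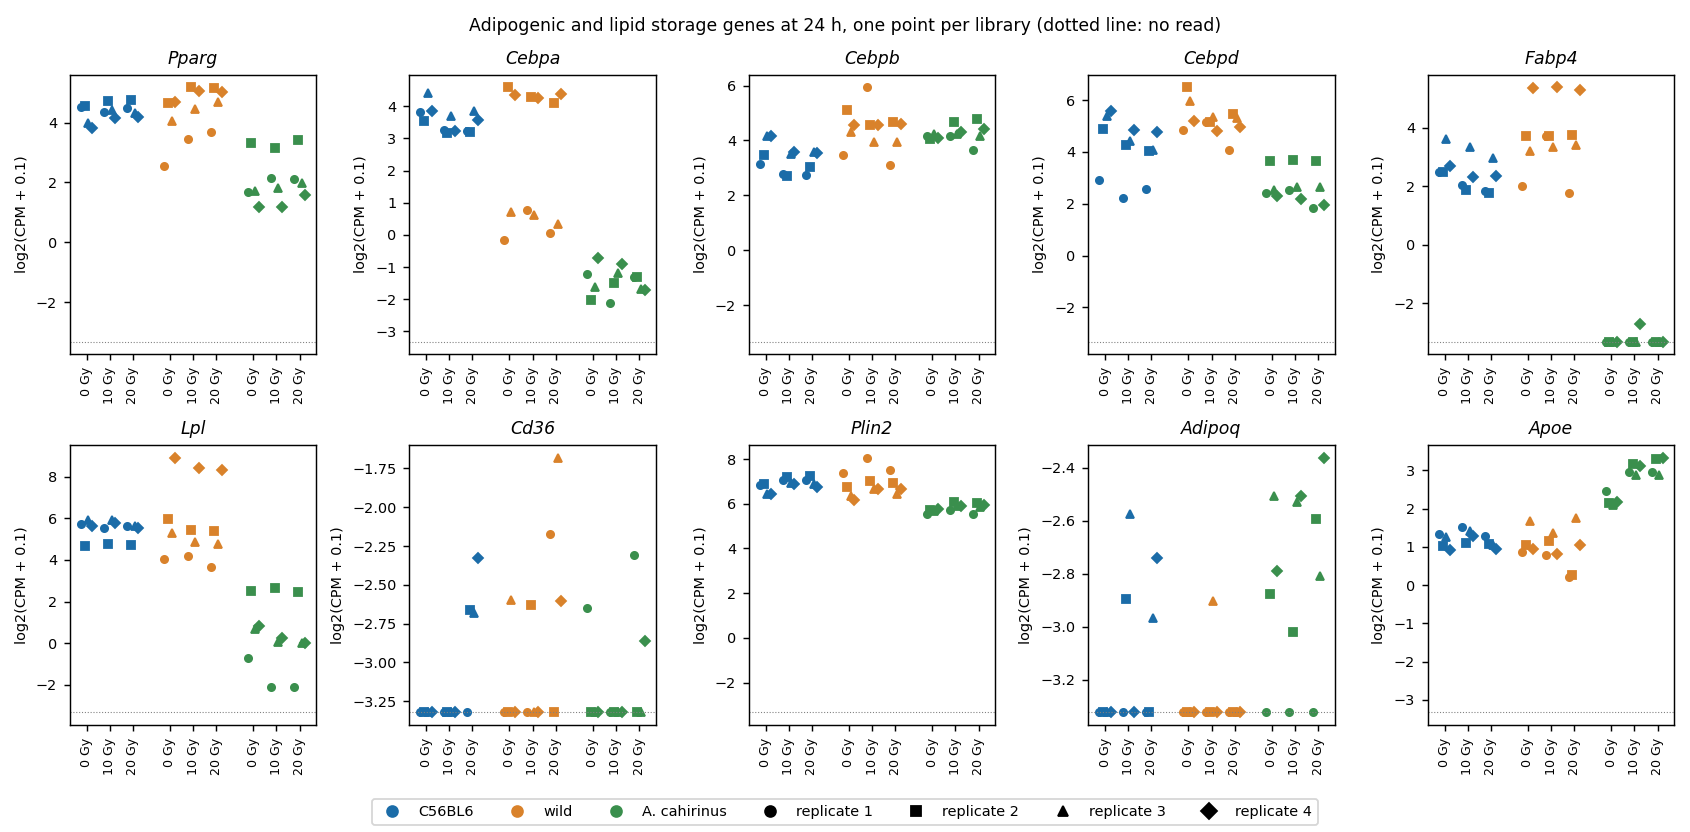
Level of each gene at 24 h as log2(CPM + 0.1), with 1 point for each of 36 libraries. Lpl of wild replicate 4 lies at 322 to 483 CPM, above all other libraries, and Cd36 and Adipoq lie at or near the dotted line of no read in all 3 populations.

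The change after 20 Gy was then tested between populations as an interaction. At 12 d the change in *A. cahirinus* exceeded that in C56BL6 cells for 6 of 10 members, against 8.36% of genes in that direction and 18.9% in either. They were Pparg (2.09 ± 0.52, adjusted p = 0.0137), Cebpa (2.0 ± 0.56, 0.0230), Lpl (4.82 ± 1.24, 0.0163), Cd36 (4.45 ± 1.21, 0.0212), Adipoq (7.50 ± 1.36, 0.00234) and Apoe (3.0 ± 0.78, 0.0175). The median over the 10 members was 2.04, and -0.04 over all genes tested. Leaving out number 3 or 4 in both populations left none of the other 5 past the threshold, and Adipoq passed in each such fit. Without number 2, Cebpa (adjusted p = 0.0791) and Cd36 (0.0738) were lost. Adipoq had 1 count in untreated and 13 in 20 Gy *A. cahirinus* cells and passed the filter through the mouse cells, so its interaction restates the fall in C56BL6 cells and says nothing of a change in *A. cahirinus*. Cd36 had 12 to 95 counts in the 4 groups compared, and its fitted value is no measure of size. It entered the fit mainly through untreated C56BL6 and 20 Gy *A. cahirinus* libraries, in which it was highest, so its call is given as a description. Adipoq and Cd36 are counted among the members that passed, with and without the block. With the block 7 of 10 members passed, against 38.2% of genes, Plin2 being the added one (-0.62 ± 0.11, adjusted p = 0.00159). Set against wild mouse cells, 1 of 10 members passed (3.22% of genes), Pparg (2.07 ± 0.52, adjusted p = 0.0460). It did not pass without replicate number 1 (adjusted p = 0.297), 3 (0.192) or 4 (0.196). With the block 4 of 10 passed, Pparg, Lpl, Apoe and, with the same limit, Adipoq (23.4% of genes), and 3 of 9 when wild replicate 1 was left out too (16.4% of genes). The libraries of wild mice and *A. cahirinus* also differed in sex-linked transcripts in every animal, so population and sex cannot be told apart in that comparison. C56BL6 replicates 1 and 2 had Xist reads and replicates 3 and 4 those of Y-linked genes, whereas every wild library had Xist and every *A. cahirinus* library Y-linked reads, so sex also differed in part between C56BL6 cells and the other populations.

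At 24 h the change in *A. cahirinus* exceeded that in C56BL6 cells for 1 of 8 members (2.08% of genes), Apoe (0.97 ± 0.22, adjusted p = 0.0341). This was lost without replicate number 2 (adjusted p = 0.198), 3 (0.338) or 4 (0.318). With the block Apoe, Cebpb and Cebpd passed, 3 of 8 members (16.8% of genes). For passaging, 4 of 10 members differed between these populations (27.5% of genes): Cebpb (1.28 ± 0.32, adjusted p = 0.0101), Lpl (3.48 ± 1.16, 0.0378), Adipoq (10.78 ± 1.99, 0.00172) and Apoe (3.15 ± 0.76, 0.00793). The Cebpb difference did not pass without number 3 (0.114), the Lpl and Apoe differences without number 3 (0.168 and 0.0843) or 4 (0.152 and 0.0859), and the Adipoq difference without number 2 (0.0610). The Adipoq value rests on the C56BL6 fall alone, since *A. cahirinus* cells had 1 count untreated and 3 passaged. Against wild mouse cells, 1 of 8 members differed in the change with passaging (3.48% of genes), Apoe (3.51 ± 0.88, adjusted p = 0.0450; 0.326 without number 1 and 0.228 without number 4), and with the block Apoe and Lpl passed, 2 of 8 (23.8% of genes). At 24 h 0 members passed against wild mouse cells (0.0% of genes), and 1 of 8, Apoe, did with the block (7.38% of genes). There, edgeR without the block gave 1 member an unadjusted p under 0.05 and DESeq2 called 0. Between wild and C56BL6 cells 0 members passed in the change at 20 Gy (0.0% of genes at 24 h and at 12 d) or with passaging (0.0131% of genes). There, edgeR gave 0 members an unadjusted p under 0.05 in each, and DESeq2 called 0. With the block and without wild replicate 1, Fabp4 and Lpl passed at 24 h (3.84% of genes). In untreated levels 0 of 8 members passed at 24 h (5.7% of genes) and 0 of 9 at 12 d (2.93% of genes), with an unadjusted p under 0.05 in edgeR for 0 and 1 members and no call by DESeq2.

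Sums of marker lists were set beside the members by their range, with no test. The 8 listed genes of mature fat cells (Adipoq, Plin1, Cidec, Cfd, Lep, Retn, Lipe and Pck1) summed to 19.3 to 53.2 CPM in untreated C56BL6 cells at 12 d, 3.63 to 7.72 CPM after 20 Gy and 2.80 to 6.07 CPM in passaged cells. In bulk RNA, fewer cells of a type and less RNA per cell cannot be told apart. In untreated wild cells the sum was 21.4, 2.23, 6.84 and 30.99 CPM in replicates 1 to 4, and after 20 Gy 5.02, 3.03, 4.17 and 7.18 CPM, lower in replicates 1, 3 and 4 and higher in replicate 2. Adipoq, a member, is part of this list. In *A. cahirinus* the sum was 18.2 to 26.7 CPM untreated and 12.3 to 46.5 CPM after 20 Gy, of which Lep, the leptin gene, had a mean of 16.3 and 27.2 CPM. Lep reached at most 0.0867 CPM in any C56BL6 library and 0.0375 CPM in any wild mouse library. The 10 fibroblast markers summed to 29770 to 49500 CPM in untreated C56BL6 cells and 11020 to 14950 CPM after 20 Gy, and to 31220 to 37460 and 21030 to 35080 CPM in *A. cahirinus*. The macrophage list, 10 genes, summed to 15.9 to 41.7 and 31.3 to 41.9 CPM in the same C56BL6 groups and to 3.85 to 6.52 and 6.54 to 8.68 CPM for its 9 genes in *A. cahirinus*. Mural and smooth muscle markers, 6 genes, summed to 175.9 to 294.2 CPM in untreated, 218.2 to 464.3 CPM in 20 Gy and 391.5 to 627.6 CPM in passaged C56BL6 cells. The same sums were 331 to 685.4, 524.5 to 842.7 and 419.9 to 1644 CPM in wild mouse cells at 12 d. In *A. cahirinus* they were 733.9 to 1547, 490.6 to 1718 and 764.6 to 1288 CPM. Endothelial markers, 7 genes, summed to 1.27 to 2.36 CPM in untreated and 3.62 to 5.48 CPM in 20 Gy *A. cahirinus* cells, ranges that did not overlap. In C56BL6 replicate 1 at 12 d they summed to 19.41 CPM untreated and 30.16 CPM after 20 Gy. The other C56BL6 replicates held 6.601 to 9.395 CPM untreated and 8.175 to 8.759 CPM after 20 Gy. The part of these markers in the changes of the 10 members was not tested.

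**Figure D5:**
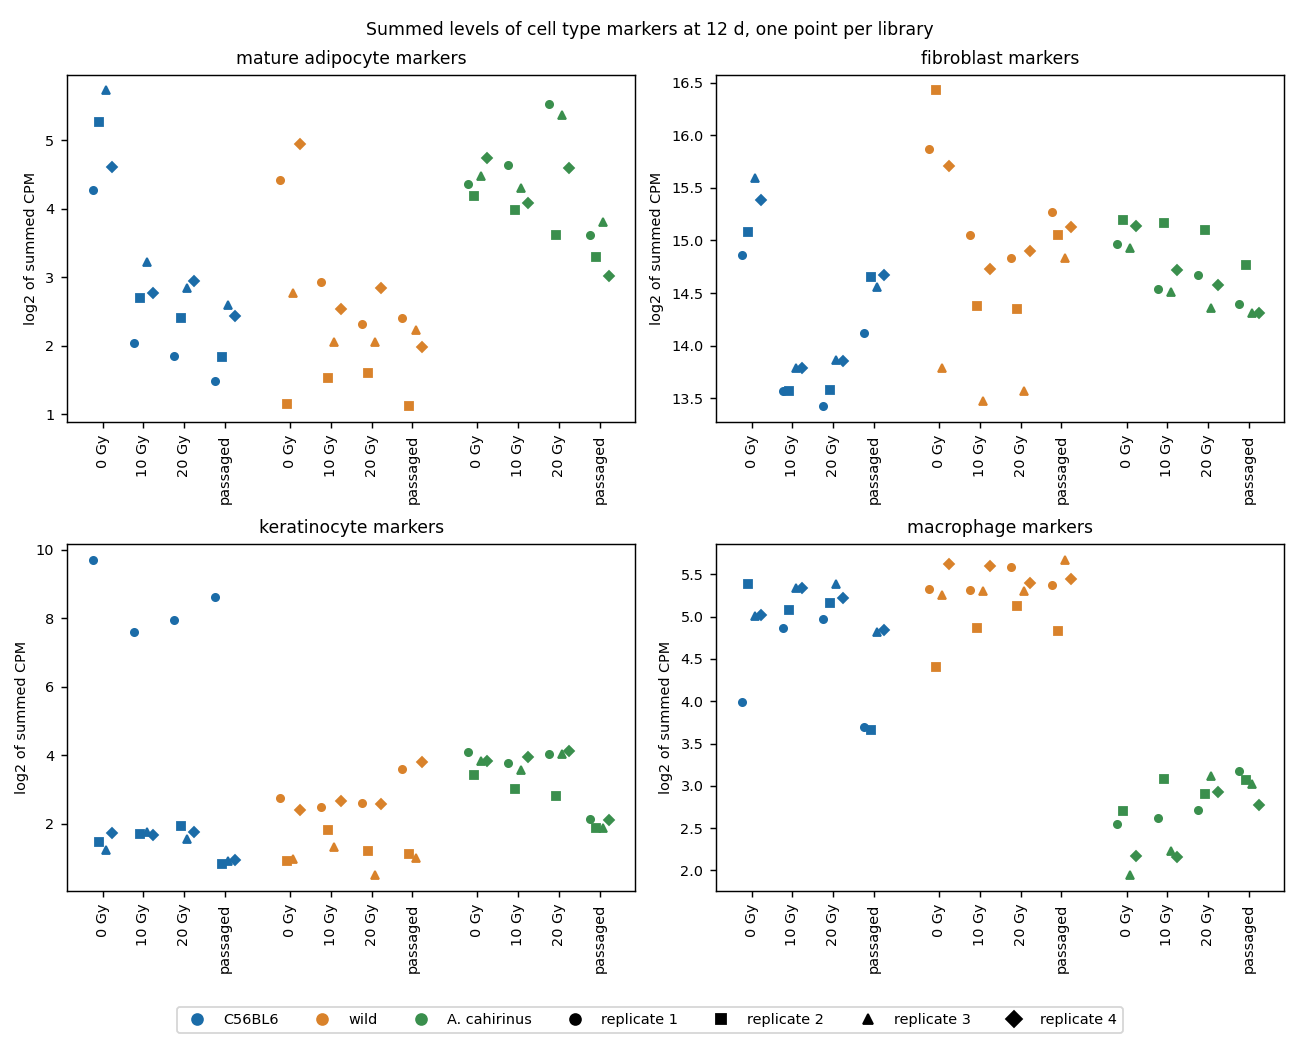
Summed CPM of 4 marker lists at 12 d on a log2 scale, 1 point per library, colour for the population and shape for the replicate number. Mature adipocyte markers fall from 19.3 to 53.2 CPM in untreated C56BL6 cells to 3.63 to 7.72 CPM after 20 Gy, and the 4 libraries of C56BL6 replicate 1 stand apart in the keratinocyte panel.

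Other genes of the pathway came from 8 lists with 85 genes. At 12 d and 20 Gy in C56BL6 cells, 19 of 71 tested passed, 7 higher and 12 lower, beside 26.5% of all genes, a share near that of the lists. The median over the 71 was -0.14, which compares with -0.01 over all genes. Products of mature fat cells fell: Cfd, which encodes the adipokine adipsin, went from 14.4 ± 7.36 to 0.627 ± 0.340 CPM (SD, n = 4; -4.47 ± 0.54, adjusted p = 0.00167). Plin1, the droplet protein of fat cells, went from 3.29 ± 1.79 to 0.321 ± 0.179 CPM (-3.30 ± 0.58, adjusted p = 0.00567). G0s2, an inhibitor of lipolysis, fell from 22.3 ± 8.14 to 5.86 ± 2.77 CPM (-1.89 ± 0.47, adjusted p = 0.0217), and Apod from 44.8 ± 14.8 to 13.3 ± 8.36 CPM (-1.71 ± 0.50, 0.0373). Fabp3, a fatty acid carrier of muscle, rose from 1.69 ± 0.317 to 5.51 ± 0.964 CPM (1.75 ± 0.20, adjusted p = 0.00158). Ddit3 and Wnt10b, which restrain fat cell formation, rose by 0.91 ± 0.19 (adjusted p = 0.0102) and 0.92 ± 0.22 (0.0179), and Lpin1 by 0.76 ± 0.20 (0.0252). Cfd and Fabp3 passed without any one replicate; the other 6 did not (highest adjusted p = 0.0515 to 0.153). By list, 1 of 15 adipogenic regulators passed (lower), 2 of 13 restrainers (higher), 4 of 7 droplet proteins (2 in each direction), 3 of 12 synthesis genes (1 higher, 2 lower), 2 of 5 lipolysis genes (1 in each direction), 4 of 9 uptake genes (1 higher, 3 lower), 2 of 5 genes of cholesterol efflux (lower) and 1 of 5 adipokines (lower).

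In *A. cahirinus* at 12 d and 20 Gy, 26 of 74 pathway genes passed, 16 higher and 10 lower, beside 31.8% of all genes, with a median of 0.03 against 0.00 over all genes. Rxrg, which encodes a receptor of the family that pairs with PPARγ, rose from 0.484 ± 0.195 to 16.1 ± 13.1 CPM (SD, n = 4; 5.07 ± 0.95, adjusted p = 0.00523). Fabp3 rose from 9.86 ± 0.860 to 29.2 ± 7.66 CPM (1.58 ± 0.20, adjusted p = 0.00105). Apod rose by 2.17 ± 0.58 (adjusted p = 0.0234). Fabp5, a fatty acid carrier of skin, fell from 73.9 ± 15.5 to 32.5 ± 1.35 CPM (-1.18 ± 0.14, adjusted p = 0.000851), and Elovl6, a fatty acid elongase gene, from 16.8 ± 3.69 to 7.19 ± 0.967 CPM (-1.22 ± 0.19, 0.00259). Pnpla3 and Zfp521 fell by 0.97 ± 0.18 (adjusted p = 0.00539) and 0.90 ± 0.21 (0.0119) on the log2 scale. Apod was thus lower after 20 Gy in C56BL6 and higher in *A. cahirinus*, and Fabp3 was higher in both; these differences between populations were not tested. Rxrg, Fabp3, Fabp5 and Elovl6 passed without any one replicate, and Apod, Pnpla3 and Zfp521 did not (highest adjusted p = 0.0602 to 0.154). By list, 7 of 17 adipogenic regulators passed (4 higher, 3 lower), 5 of 13 restrainers (3 higher, 2 lower), 0 of 8 droplet proteins, 2 of 11 synthesis genes (1 in each direction), 4 of 6 lipolysis genes (3 higher, 1 lower), 5 of 9 uptake genes (3 higher, 2 lower), 1 of 5 genes of cholesterol efflux (higher) and 2 of 5 adipokines (1 in each direction). In wild mouse cells 0 of 70 pathway genes passed at 12 d and 20 Gy in edgeR, beside 0.0694% of all genes. Of the 70, 13 had an unadjusted p under 0.05, beside 1984 of 14399 genes. DESeq2 called 4, beside 663 of 14203 genes, and 11 passed with the block, beside 15.4% of all genes. At 24 h and 20 Gy, 0 of 66 passed in each mouse population, beside 0.0895% of all genes in C56BL6 and 0.0% in wild mouse cells. There, 11 and 10 had an unadjusted p under 0.05, beside 1426 of 14526 and 856 of 14473 genes. DESeq2 called 1 and 2, beside 268 of 12474 and 85 of 14364 genes. In *A. cahirinus* Cidea (0.66 ± 0.14, adjusted p = 0.0385) and Fabp5 (-0.67 ± 0.14, 0.0406) of 71 passed then, beside 3.59% of all genes, and each was lost when some single replicate was left out (highest adjusted p = 0.258 and 0.340).

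With passaging 27 of 70 pathway genes were lower and 9 higher in C56BL6 cells, beside 49.6% of all genes that passed (median -0.38, and -0.02 over all genes). The largest falls were in Cfd (-10.21 ± 0.74, adjusted p = 0.000155, on almost no reads in passaged cells), Apod (44.8 ± 14.8 to 1.41 ± 0.220 CPM, 0.000113), Clu (16.6 ± 7.56 to 1.11 ± 0.293 CPM, 0.000392) and Rbp4 (2.08 ± 1.11 to 0.181 ± 0.172 CPM, 0.00498). Fasn, the fatty acid synthase gene, rose in passaged cells of both mouse populations, from 117 ± 18 to 235 ± 39.1 CPM in C56BL6 (1.01 ± 0.15, adjusted p = 0.00125) and from 99.7 ± 13.9 to 203 ± 17.7 CPM in wild mouse cells (1.02 ± 0.13, 0.0118). Fabp5 rose as well, by 1.47 ± 0.42 (adjusted p = 0.0192) and 1.11 ± 0.24 (0.0286). Klf2 (0.85 ± 0.31, 0.0495) and Gata2 (0.74 ± 0.19, 0.0141) rose in C56BL6, and Gata3 (1.46 ± 0.38, 0.0492) and Dgat2 (0.78 ± 0.19, 0.0374) in wild mouse cells. In wild mouse cells 6 of 67 were higher and 4 lower, beside 10.7% of all genes (median -0.17, and -0.03 over all genes), with falls in Pltp (-2.02 ± 0.25, adjusted p = 0.0115), Wnt5a (-1.38 ± 0.35, 0.0454), Slc27a1 (-1.15 ± 0.20, 0.0181) and Lipa (-0.80 ± 0.15, 0.0213). Each of these 8 wild calls was lost when some single replicate was left out (highest adjusted p = 0.162 to 0.258). In C56BL6 cells Fabp5 (0.112), Klf2 (0.163) and Gata2 (0.0668) were lost in the same way. In *A. cahirinus* 6 of 71 were higher and 14 lower, beside 25.8% of all genes (median -0.06, and -0.01 over all genes). Pltp, which transfers phospholipids between lipoproteins, fell from 24.6 ± 5.97 to 2.80 ± 0.551 CPM (-3.15 ± 0.22, adjusted p = 0.000313). Clu (-1.81 ± 0.12, 0.000268), Egr2 (-1.78 ± 0.37, 0.0108) and Lep (-1.71 ± 0.31, 0.00680) fell too, and Prdm16 (1.13 ± 0.29, 0.0251), Ddit3 (0.48 ± 0.09, 0.00861) and Ppard (0.41 ± 0.11, 0.0279) rose. Of these, Pltp, Clu and Lep passed without any one replicate, whereas Prdm16 (0.134), Ddit3 (0.0819), Ppard (0.146) and Egr2 (0.0941) did not.

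Genes whose pattern was most like that of a member were found by the lowest of its 3 Pearson correlations, one per population over 28 libraries centred by time, among 10532 genes. The libraries of a population share animals and doses, so these values carry no test. Apoe was most like Pink1 (lowest r 0.87) and Cdadc1 (0.81). Lpl was most like Pdgfra (0.74), itself a fibroblast marker, and Ccdc71l (0.70), and Cebpd was most like Lbp (0.73) and Grk5 (0.72). Plin2 was most like Pomp and Cndp2 (0.68 each), Cebpb like Bag5 (0.60) and Jund (0.59), and Pparg like Tmed5 (0.59) and Prkca (0.56). The other 4 members were too low in *A. cahirinus* for this measure.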

How the data were processed

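PolyA RNA of cultured skin fibroblasts was sequenced from stranded libraries, per the labels' protocols. The authors deposited raw read counts per gene for 56 mouse and 28 *A. cahirinus* libraries. Mouse reads were counted with featureCounts 2.0.3 on GRCm39 with Ensembl release 108, per the file headers, without a strand option, so antisense partners cannot be told apart, and without multimapping reads or reads that overlap several genes. The submitters' processing notes name Trim Galore, HISAT2 and featureCounts with no version. *A. cahirinus* reads were counted by gene name on AcoCah2, per the file headers.

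Each comparison was fitted on the counts of its 8 libraries with edgeR 4.0.16 in R 4.3.3 (quasi-likelihood test, TMM scaling, filterByExpr, Benjamini-Hochberg adjustment over all genes tested, threshold 0.05), and changes between populations as an interaction over the 18109 gene symbols that both tables share. The standard error of a log2 fold change was taken from the F statistic. CPM values are scaled by TMM factors, and log2 CPM for correlations used a prior count of 2. A fit with the replicate number as a block was added because the numbers paired the libraries: they carry animal codes, and same-numbered libraries deviated together in all 27 comparisons within a population (lowest correlation 0.42; means for different numbers -0.31 to -0.12). DESeq2 1.42.0, RLE scaling, no filter on low counts, a fit over all groups, and fits without one of the replicates were alternatives, and the procedure was tested on simulated data. Intervals on ratios of counts and the level of 3 counts cover counting error only.

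The 10 members, the 85 pathway genes and the marker lists were chosen with earlier results of these data known. Named were all members, up to 4 pathway genes in each direction with the largest change and at least 1 CPM on average at 20 Gy and on passaging, and the 2 genes most like each member. The values of 1 pathway gene that this rule names are not reported here. All 84 libraries were used. Upstream sequences come from the GRCm39 genome and GENCODE annotation.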

Additional observations from a re-analysis of the deposited data

Results flagged for a closer look

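Of 157 groups of 4 libraries in which a member averaged at least 1 CPM, 28 had 1 library whose gap to the nearest of the others as a share of the group's range exceeded the 95% critical value of Dixon's test. Chance gives about 1 such group in 20. *A. cahirinus* replicate 2 was the high library in 14 of the 28. Its Pparg was 9.873 CPM in untreated cells at 24 h (next 3.145), and at 12 d 7.809 CPM in passaged cells (next 2.664), 8.424 CPM after 10 Gy (next 2.482) and 12.99 CPM after 20 Gy (next 5.276). Its Cebpd was 12.59 CPM in untreated cells at 24 h, and 18.5 CPM untreated and 25.51 CPM after 20 Gy at 12 d. Its Lpl was 6.245 CPM after 10 Gy and 5.396 CPM after 20 Gy at 24 h, and 7.773 CPM passaged, 13.45 CPM after 10 Gy and 19.42 CPM after 20 Gy at 12 d. Its Plin2 was 67.15 CPM after 20 Gy and its Apoe 17.79 CPM untreated, both at 12 d.

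In wild mouse cells, replicate 4 had the high Lpl at 24 h, 482.9 CPM untreated, 340.2 CPM after 10 Gy and 322.4 CPM after 20 Gy, and the high Fabp4 after 10 Gy at 24 h (41.43 CPM, next 13.1). Replicate 3 had the high Apoe at 12 d, 185.8 CPM untreated (next 47.83), 46.05 CPM after 10 Gy and 7.716 CPM passaged. Replicate 1 had the high Plin2 after 10 Gy at 24 h (266.4 CPM), in the library with fewer detected genes than the others of its group. In C56BL6 cells, replicate 3 had the high Cebpa after 10 Gy at 24 h (12.89 CPM) and in passaged cells (30.19 CPM), and the high Fabp4 in untreated cells at 24 h (12.23 CPM) and in passaged cells (14.9 CPM). Replicate 2 had the low Lpl after 20 Gy at 24 h (26.02 CPM, next 46.27). Replicate 1, whose 12 d libraries held keratinocyte markers, had the low Apoe after 20 Gy at 12 d (7.199 CPM, next 17.73).

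The change of 13 member values differed between populations by the interaction test. Between *A. cahirinus* and C56BL6 cells the log2 difference in the change at 20 Gy was 0.97 for Apoe at 24 h, and at 12 d 2.09 for Pparg, 2.0 for Cebpa, 4.82 for Lpl, 4.45 for Cd36, 7.50 for Adipoq and 3.0 for Apoe. For passaging it was 1.28 for Cebpb, 3.48 for Lpl, 10.78 for Adipoq and 3.15 for Apoe. Between *A. cahirinus* and wild mouse cells it was 2.07 for Pparg at 20 Gy and 12 d and 3.51 for Apoe with passaging. The Adipoq values restate its fall in C56BL6 cells, since *A. cahirinus* cells had 1 to 13 Adipoq counts in the groups compared. Cd36 had few reads and entered its fit mainly through the groups in which it was highest, so its value is given as a description.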

How the results depend on the processing

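Of the 39 counts of members past the threshold, none moved by more than 1.5 times with RLE scaling. Without a filter on low counts, the count went from 2 to 1 for 20 Gy against passaged wild cells, and from 1 to 0 for wild against C56BL6 passaged cells and for the differences in change between *A. cahirinus* and C56BL6 at 24 h and between *A. cahirinus* and wild cells at 12 d and with passaging. DESeq2 gave 2 in place of 1 for wild passaged against untreated cells, 3 in place of 1 for 10 Gy against passaged wild cells, 4 in place of 2 for passaged against untreated *A. cahirinus* cells, 2 in place of 1 for wild against C56BL6 passaged cells and 2 in place of 1 for the difference between *A. cahirinus* and wild cells at 12 d. All groups in one fit gave 2 in place of 1 for wild passaged against untreated cells, for 10 Gy against passaged wild cells and for wild against C56BL6 passaged cells, and 1 in place of 2 for 20 Gy against passaged wild cells. The cause of these moves was not tested.

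The replicate block moved 20 of 36 counts. In C56BL6 cells it gave 5 in place of 0 at 24 h at each dose, 7 in place of 4 at 10 Gy and 12 d, and 6 in place of 3 for 20 Gy against passaged cells. In wild cells it gave 3 in place of 0 at 20 Gy and 24 h, 1 and 2 in place of 0 at 20 and 10 Gy and 12 d, 3 in place of 1 for passaging, and 5 in place of 2 and 1 for 20 and 10 Gy against passaged cells. In *A. cahirinus* it gave 2 in place of 1 at 10 Gy and 24 h, 4 in place of 2 at 20 Gy, 3 in place of 0 at 10 Gy, 2 in place of 0 for 20 against 10 Gy, 6 in place of 2 for passaging and 5 in place of 3 for 20 Gy against passaged cells at 12 d. For differences in change the block gave 3 in place of 1 between *A. cahirinus* and C56BL6 at 24 h, and 1 in place of 0 at 24 h, 4 in place of 1 at 12 d and 2 in place of 1 with passaging between *A. cahirinus* and wild cells. With the block and without wild replicate 1, an alternative chosen after seeing the data, wild cells had 3 at 20 Gy and 4 at 10 Gy at 24 h and 5 for each dose against passaged cells. The differences in change were then 1 at 24 h, 3 at 12 d and 2 with passaging against *A. cahirinus*, and 2 at 24 h against C56BL6. Shares of all genes past the threshold moved too when wild replicate 1 was left out of the blocked fit. For the difference at 12 d against *A. cahirinus* the share went from 23.4% to 16.4%. For that at 24 h against C56BL6 it went from 0.647% to 3.84%.

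Leaving out each replicate in turn gave 1 to 7 members at 20 Gy, 0 to 7 at 10 Gy and 4 to 10 with passaging in C56BL6 cells at 12 d, and 2 to 5 and 2 to 6 for 20 and 10 Gy against passaged cells. In wild cells the ranges were 0 to 2 with passaging and 0 to 1 for each dose against passaged cells. In *A. cahirinus* they were 0 to 1 for each dose at 24 h, and at 12 d 0 to 4 at 20 Gy, 0 to 2 at 10 Gy, 0 to 2 for 20 against 10 Gy, 0 to 5 with passaging, and 3 to 6 and 0 to 3 for 20 and 10 Gy against passaged cells. Wild against C56BL6 passaged cells gave 0 to 1. The differences in change gave 0 to 1 at 24 h, 1 to 6 at 12 d and 1 to 4 with passaging between *A. cahirinus* and C56BL6, and 0 to 4 at 12 d and 0 to 2 with passaging between *A. cahirinus* and wild cells. The remaining counts were 0 without any one replicate. Shares of all genes past the threshold can move with the replicate left out as well. In C56BL6 cells at 10 Gy and 12 d the share was 20.9% with all replicates and 35.7% without replicate 1. The ranges alone therefore do not tell a change in the members from one over all genes. No value past the threshold in either fit changed sign. Of 2983 single values under an alternative, 124 changed sign where neither fit passed. Cd36, and Adipoq outside untreated C56BL6 and wild cells at 12 d, had few reads, and the depth of 17.42 to 52.86 M counts limits their fold changes.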
